A study of Homo sapiens with 6 samples.

Results

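The 10 genes described here are the transcriptional coactivators YAP1 and TAZ (gene symbol WWTR1), the kinases LATS1 and LATS2 that restrain them, the DNA-binding partner TEAD1, and 5 genes counted among their transcriptional targets, CTGF, CYR61, ANKRD1, AMOTL2 and AXL. They were taken by symbol, 10 of the 23617 symbols measured in MDA-MB-231 cells, and the RefSeq transcripts of a symbol were summed. All 10 were present, with 18 transcripts of 43497, and all 10 passed a minimum of 1 FPKM in the untreated or the DAC-treated MDA-MB-231 library, as did 12525 symbols in all. FPKM divides the fragments of a transcript by its length and by the library's mapped fragments, so levels can be compared between genes on this scale.

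MDA-MB-231 is a human breast cancer cell line, and HMLER cells are human mammary cells that were transformed in culture. DAC (decitabine), an analog of deoxycytidine, is built into DNA and traps DNA methyltransferases, so that methylation is lost as cells divide. Polyadenylated RNA was sequenced from DAC-treated cells, given 10 µM of the drug, renewed every day, for 72 h, and from untreated cells of the same line. There were 2 DAC-treated and 2 untreated HMLER libraries, and 1 DAC-treated and 1 untreated MDA-MB-231 library, each made from a pool of independent extractions. A label of the untreated MDA-MB-231 library carries another cell line number, and the cell line of its title was used.

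YAP and TAZ carry signals on cell shape, adhesion and crowding into the nucleus. In the Hippo pathway, the MST kinases activate LATS1 and LATS2, which phosphorylate YAP and TAZ and hold them in the cytoplasm, where they can be degraded. When the kinases are quiet, YAP and TAZ enter the nucleus and bind TEAD factors, which recognise the DNA word GGAATG and drive genes of matrix signalling, the cytoskeleton and growth. Because the pathway is set largely by phosphorylation and location of the proteins, RNA levels of its kinases and coactivators do not measure its activity.

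The deposited tables differ in what they allow. The MDA-MB-231 table holds every transcript with its FPKM in each library between a lower and an upper limit from Cuffdiff, called bounds here. With 1 library per condition there was no replicate check, no test between conditions was possible and no p-value is given. A gene was called higher above a DAC/untreated ratio of 2 and lower under 0.5. The HMLER table holds 1 merged value per condition and only transcripts that rose more than 2-fold (2009 transcripts of 1854 symbols, lowest ratio 2.0, lowest DAC value 1.0 FPKM), so a gene that is not in it may have fallen, not changed, or been too low. Low MDA-MB-231 values came in steps of the worth of a single read (100% of 712 untreated and of 736 DAC-treated low values lay within 0.1 of a whole read), which gave between 2004 and 77365 reads for each of the 10 genes in a library. In the untreated MDA-MB-231 library the line's mesenchymal markers VIM and CD44 stood at 3066 and 212.3 FPKM and the epithelial keratins KRT8 and KRT18 at 154.4 and 173.5 FPKM, EPCAM, CLDN4 and CLDN7 were at 7.90, 7.62 and 9.35 FPKM, CLDN3, FOXA1 and GATA3 between 0.795 and 1.10 FPKM, and CDH1, ESR1 and PGR were listed at 0. SPARC and CDH2, also listed as markers of the line, were low, at 2.09 and 0.090 FPKM, and so did not mark it in this library. Marker sets could not be checked in HMLER, whose table holds only transcripts that rose. Those listed there were CD44 (1.23 to 8.26 FPKM), EPCAM (0.450 to 2.17), CLDN3 (0.299 to 2.42), CLDN7 (6.02 to 15.3) and FOXA1 (0.533 to 1.13), on the listed transcripts.

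To show what the TEAD word looks like beside these genes, promoters of 300 bases (250 before and 50 after a RefSeq start) were searched for GGAATG on either strand, where it reads CATTCC on the other. The set of RefSeq promoters used here held 12 promoters of 8 of the genes, with CTGF under its current symbol CCN2, and none for CYR61 and TEAD1. The word occurred 3 times before CTGF, where 0.128% of 35116 promoters held at least 3, and 2 times before the RefSeq start of ANKRD1, where 1.37% held at least 2. It occurred once in the promoter of YAP1, in the promoter of LATS2, in the second of the AMOTL2 promoters and in the second of the AXL promoters, where 12.7% of all promoters held exactly 1, and was not in the windows of WWTR1 and LATS1. The stretches that hold it are printed 5′ to 3′ along the gene's strand, with the word in capitals. They are from GRCh37, the same assembly as the hg19 of the files. For CTGF the stretch is chr6:132272590-132272693 (minus strand), upstream of the gene, with the word at positions -169, -104 and -95 from the start. For ANKRD1 they are chr10:92681047-92681076 and chr10:92680955-92680984 (minus strand), and for AMOTL2 chr3:134093341-134093370 (minus strand), and of these the second of ANKRD1 and that of AMOTL2 lie in the annotated locus, whose 5′ end is upstream of the RefSeq start used. For LATS2 it is chr13:21635699-21635728 (minus strand), across the start itself. For YAP1 it is chr11:101981004-101981033 (plus strand), and for AXL chr19:41732436-41732465 (plus strand), also in the annotated locus.
CTGF: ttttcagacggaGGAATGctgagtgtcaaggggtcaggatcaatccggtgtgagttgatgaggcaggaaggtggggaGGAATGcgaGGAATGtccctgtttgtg
ANKRD1 distal: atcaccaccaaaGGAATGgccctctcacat
ANKRD1 proximal: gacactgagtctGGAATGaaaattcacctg
AMOTL2: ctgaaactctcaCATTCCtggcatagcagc
LATS2: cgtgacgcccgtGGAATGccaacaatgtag
YAP1: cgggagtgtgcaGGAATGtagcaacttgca
AXL: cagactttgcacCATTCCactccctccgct

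A match of 6 letters is a description of the sequence, and no binding was measured here. The same promoters differed in CpG content, the dinucleotide that DNA methyltransferases act on. The observed/expected CpG ratio, whose median over all promoters was 0.579 (quartiles 0.229 and 0.856), was 1.15 for YAP1, 0.892 for LATS2, 0.683 for CTGF and 0.243 for ANKRD1. The genes with 2 promoters in the table had a CpG-poor and a CpG-richer window each, at 0.098 and 0.626 for WWTR1, 0.046 and 0.967 for AMOTL2, 0.435 and 1.05 for LATS1, and 0.216 and 0.831 for AXL. The second, CpG-richer start lay 7552 bases inside the locus for AXL and 45248 bases inside it for WWTR1. Their first starts lay 20 and 0 bases from its 5′ end. For AMOTL2 and LATS1 the second start was the nearer to that end, at 117 and 155 bases. Methylation of these windows was not analysed here.

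**Figure D1:**
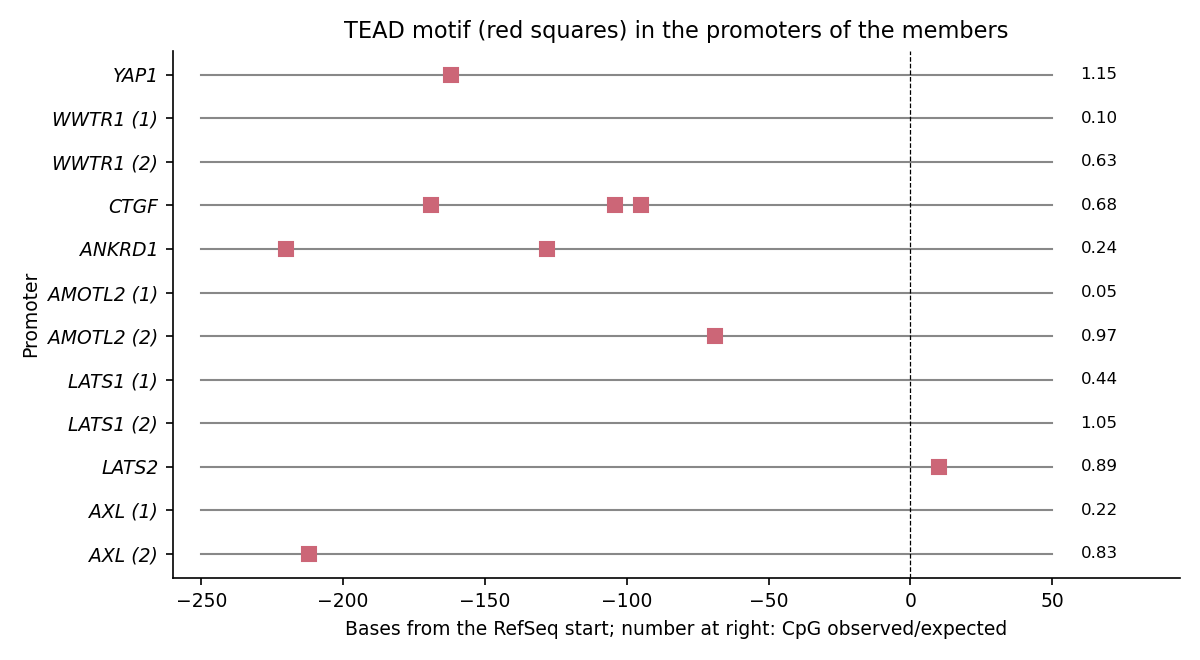
Each grey line is a RefSeq promoter of 300 bases, drawn from 250 bases before to 50 after the start (x axis, bases; dashed line, start), and each red square is a match to the TEAD word GGAATG on either strand. The numbers at the right are the CpG observed/expected ratios, and the 3 matches of CTGF and 2 of ANKRD1 are the genes with more than 1.

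The order of levels in untreated MDA-MB-231 cells placed the 5 target genes above the coactivators, TEAD1 and the kinases. CTGF led with 694.7 FPKM, 109th among the symbols, followed by CYR61 with 528.2 (145th), AXL with 400.3 (203rd), ANKRD1 with 188.3 (526th) and AMOTL2 with 75.5 FPKM. The others came below these, at 50.7 FPKM for YAP1, 44.2 for TEAD1, 29.6 for WWTR1, 15.0 for LATS2 and 10.7 for LATS1. After DAC, ANKRD1 stood above CYR61, AXL below it, and TEAD1 just above YAP1. Neighbours in this order were not separated by their Cuffdiff bounds, summed over transcripts. These overlapped in 9 of 9 adjacent pairs in the untreated library and in 9 of 9 in the DAC-treated library.

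Across the DAC and untreated MDA-MB-231 libraries, ANKRD1 rose and AXL fell past 2-fold, and the other 8 genes lay between ratios of 0.645 and 1.21. Higher calls were thus 1 of 10, where 10.8% of all 12525 genes were called higher, and lower calls 1 of 10, where 4.82% were called lower. Ratios were under 1 for 6 genes and above 1 for 4, where 56.9% of all genes were under 1. The median ratio of the 10 genes was 0.837 (log2 -0.26), beside 0.938 (log2 -0.09) over all genes. The median over the 11292 genes with 1 FPKM in both libraries was 0.912 (log2 -0.13). Dividing by it, which raises every ratio, left the 6 genes under 1 still under 1. None of the 17 transcripts at 1 FPKM had bounds that lay apart between the libraries, where 1.6% of 17744 transcripts did. Overlap of bounds does not show that a difference lies within error, and the bounds are given per transcript, not for the sum of a gene. On counting error alone, which covers neither cultures nor library preparation, 9 of the 10 read ratios had an exact 95% Clopper-Pearson interval that left out 1, with LATS2 the exception. With at least 2004 reads per gene, even the ratio of 1.06 of TEAD1 left out 1. The share over all genes was not computed, so this count is not a trait of these genes.

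**Figure D2:**
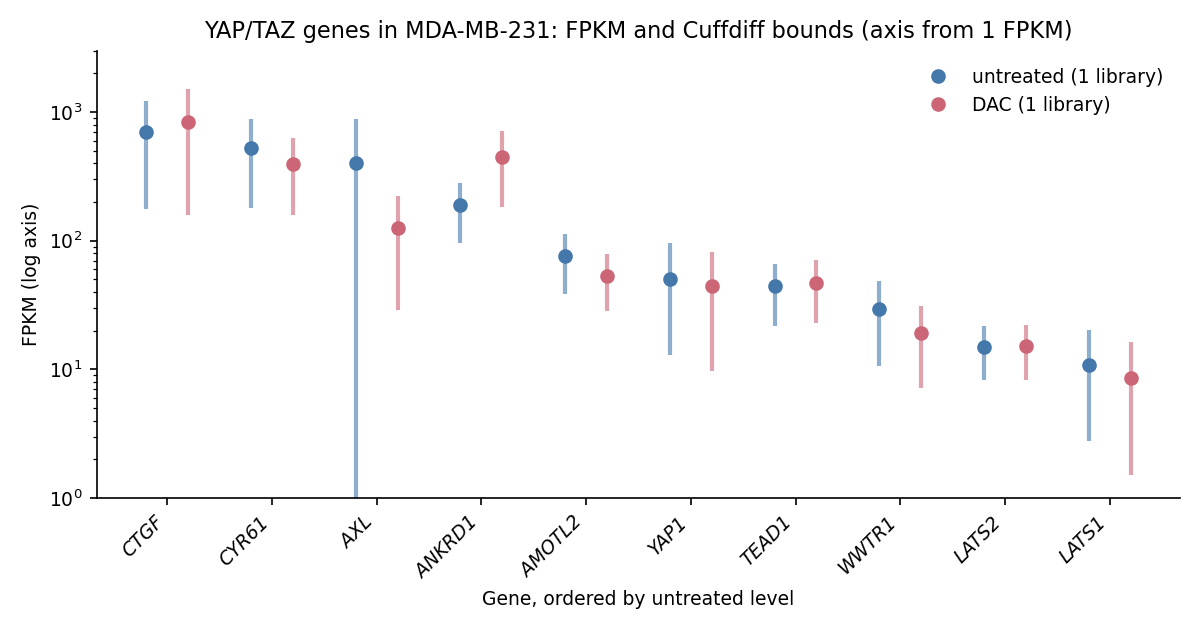
FPKM on a log axis (y, drawn from 1 FPKM) of the 10 genes in MDA-MB-231, ordered by untreated level (x), with 1 untreated library in blue and 1 DAC-treated library in red. Vertical lines are the Cuffdiff bounds, summed over the transcripts of a gene, and they overlap for every gene, ANKRD1 (188.3 and 448.5 FPKM) and AXL (400.3 and 126.7 FPKM) included.

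Among the targets, ANKRD1 (chr10:92671857-92681032, minus strand), which encodes an ankyrin-repeat protein of muscle sarcomeres and the nucleus and is widely read as a sign of YAP/TAZ activity, was the gene that rose past 2-fold. It had 188.3 FPKM (bounds 95.6 to 281.0) in the untreated and 448.5 FPKM (183.7 to 713.4) in the DAC-treated library, a ratio of 2.38 (log2 1.25). Behind these values stood 14083 and 33329 reads, for a counting interval of the ratio from 2.34 to 2.43. The DAC-treated library was the higher, and its bounds shared the range from 183.7 to 281.0 FPKM with those of the untreated library.

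CTGF and CYR61 encode secreted matrix-associated proteins of the CCN family and are the most used YAP/TAZ target genes. CTGF (chr6:132269317-132272518, minus strand) had 694.7 FPKM (bounds 175.5 to 1213.9) untreated and 837.3 FPKM (157.7 to 1517.0) after DAC, a ratio of 1.21 (log2 0.27). CYR61 (chr1:86046444-86049648, plus strand) had 528.2 FPKM (178.3 to 878.0) untreated and 392.2 FPKM (158.3 to 626.2) after DAC, a ratio of 0.743 (log2 -0.43). The pair thus stood on opposite sides of 1, and neither reached the 2-fold threshold. In reads, CTGF went from 63020 to 75457, with a counting interval of the ratio from 1.19 to 1.22, and CYR61 from 46773 to 34506, with an interval from 0.732 to 0.753. The intervals did not overlap between these genes, whereas the Cuffdiff bounds of both did between libraries.

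AMOTL2 (chr3:134074190-134093406, minus strand) encodes a junction protein of the angiomotin family that binds YAP and is itself a YAP/TAZ target, which makes it a feedback inhibitor. It had 75.5 FPKM (bounds 38.5 to 112.5) in the untreated library and 53.4 FPKM (28.3 to 78.5) in the DAC-treated library, a ratio of 0.708 (log2 -0.50). It was not called lower, and the bounds of the libraries overlapped from 38.5 to 78.5 FPKM.

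AXL (chr19:41725108-41767671, plus strand) encodes a receptor tyrosine kinase of the TAM family that binds GAS6 and is abundant in mesenchymal-like breast cancer cells. Its summed level was 400.3 FPKM in the untreated and 126.7 FPKM in the DAC-treated library, a ratio of 0.317 (log2 -1.66), from 77365 and 24326 reads (counting interval of the ratio 0.312 to 0.321). Both transcripts were lower after DAC. NM_001699 had 243.9 FPKM (bounds 0 to 522.2) and then 84.5 FPKM (28.2 to 140.7), and NM_021913 had 156.3 FPKM (0 to 360.2) and then 42.3 FPKM (0.474 to 84.1). These transcripts differ by 27 bases in length, so most reads fit either, and the untreated bounds reach 0. VIM, the most abundant marker of the line, was also lower, with 3066 FPKM (bounds 0 to 10419) and 1134 FPKM (120.3 to 2147), a ratio of 0.370. CD44 went from 212.3 to 138.7 FPKM, whereas SPARC rose from 2.09 to 11.3 FPKM and CDH2 from 0.090 to 1.06 FPKM. Of the epithelial markers, CDH1 was at 0 and 0.179 FPKM and CLDN3 rose from 0.921 to 4.08 FPKM. CLDN4 fell from 7.62 to 2.60 FPKM, and CLDN7 had 9.35 and 17.2 FPKM. Over whole marker lists, the 4 listed for the line other than AXL summed to 3280 and 1285 FPKM (2 higher, 1 lower). Most of this sum was VIM, and the 2 higher were SPARC and CDH2, which were low untreated. The 8 epithelial markers summed to 353.8 and 339.3 FPKM (1 higher, 1 lower). Most of this sum was KRT8 (154.4 and 141.0 FPKM) and KRT18 (173.5 and 164.1 FPKM). Another 7 fibroblast and immune markers summed to 138.0 and 177.9 FPKM (1 higher, none lower). Of these 7, CD68 made up most of the sum (137.1 and 161.9 FPKM), COL1A1 rose from 0.853 to 15.6 FPKM (18.3-fold) with bounds that lay apart, and 5 were under 1 FPKM in both libraries. The part of cell state in the AXL difference was not tested. In RNA from bulk cells, fewer AXL-expressing cells and less AXL RNA per cell cannot be told apart.

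The coactivators had lower values after DAC, and neither passed the threshold. YAP1 (chr11:101981192-102104154, plus strand) had 50.7 FPKM in the untreated and 44.3 FPKM in the DAC-treated library, a ratio of 0.874 (log2 -0.19), from 11121 and 9641 reads. WWTR1, which encodes TAZ (chr3:149235022-149421060, minus strand), had 29.6 and 19.1 FPKM, a ratio of 0.645 (log2 -0.63), from 6162 and 3963 reads, the lowest ratio among the genes that were not called. Divided by the median ratio of all genes, the YAP1 ratio became 0.958 and the WWTR1 ratio 0.707.

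The transcripts of the coactivators did not move in parallel. The main YAP1 transcript NM_001130145 had 31.3 and 25.0 FPKM, or 61.8% and 56.4% of the gene's sum. NM_006106 had 12.7 and 9.42 FPKM, while NM_001195044 had 5.04 and 7.43 FPKM and NM_001195045 1.60 and 2.45 FPKM, which took the share of NM_001195044 from 9.95% to 16.8%. For WWTR1, NM_001168280 had 11.2 FPKM (bounds 2.58 to 19.8) and 4.50 FPKM (0.063 to 8.94), a ratio of 0.402, and NM_015472 had 18.4 FPKM (7.99 to 28.9) and 14.6 FPKM (7.04 to 22.2), a ratio of 0.792. The share of NM_015472 in the TAZ sum was thus 62.2% and 76.4%, and the remaining transcript was listed at 0 in both libraries. Bounds of each transcript overlapped between libraries, and transcripts that share most of their exons share reads, so these shares are estimates by Cuffdiff.

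**Figure D3:**
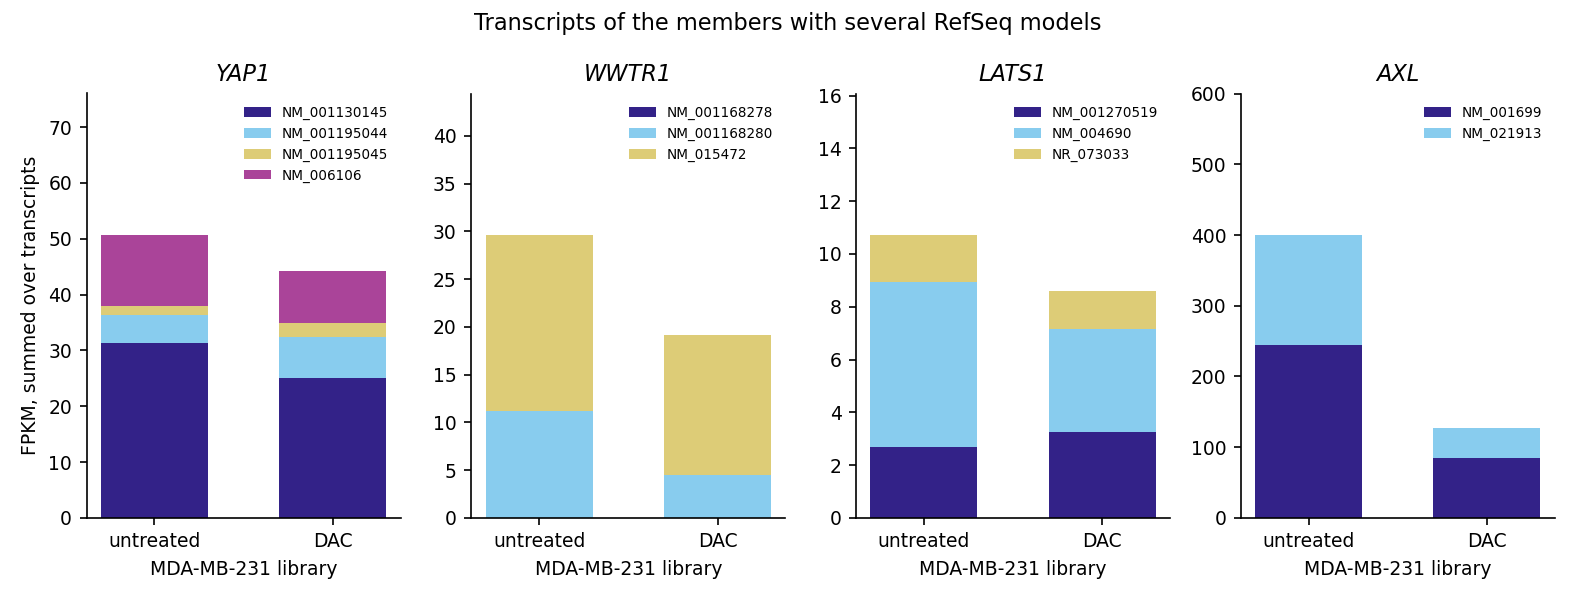
Stacked bars give the FPKM (y axis, from 0, a scale of its own per gene) of each RefSeq transcript of YAP1, WWTR1, LATS1 and AXL in the untreated and the DAC-treated MDA-MB-231 library (x axis). Both AXL transcripts are smaller after DAC, and in WWTR1 the transcript NM_001168280 shrinks from 11.2 to 4.50 FPKM while NM_015472 goes from 18.4 to 14.6 FPKM.

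The kinases and TEAD1 did not pass the threshold, with LATS2 and TEAD1 near a ratio of 1 and LATS1 under it. LATS2 (chr13:21547176-21635722, minus strand), itself induced by YAP/TAZ in a feedback loop, had 15.0 FPKM (bounds 8.22 to 21.7) untreated and 15.2 FPKM (8.31 to 22.0) after DAC, a ratio of 1.01. Its reads, 3426 and 3448, gave a counting interval of the ratio from 0.966 to 1.06. LATS1 (chr6:149979289-150039392, minus strand) had 10.7 and 8.58 FPKM, a ratio of 0.800 (log2 -0.32), while its reads, 2800 and 2004, had a ratio of 0.720 (0.680 to 0.763). The estimated mix of its transcripts moved at the same time toward the shorter NM_001270519, from 25.2% to 37.7% of the sum, and away from NM_004690, from 58.4% to 45.7%. TEAD1 (chr11:12695969-12966284, plus strand) had 44.2 FPKM (21.9 to 66.5) and 46.6 FPKM (23.0 to 70.2), a ratio of 1.06 with a counting interval from 1.03 to 1.08. The 4 TEAD genes together had 139.1 and 133.8 FPKM, a ratio of 0.962.

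In HMLER cells, 5 of the 10 genes were in the table of risen transcripts: ANKRD1, CTGF, CYR61, AMOTL2 and LATS2. Of the 12525 genes at 1 FPKM in MDA-MB-231, 10.9% were in that table. They were 4 of the 5 targets and the kinase LATS2, while the coactivators YAP1 and WWTR1, TEAD1, LATS1 and the target AXL were not in it. Each of the 5 is represented by the same single transcript in both tables. Since the table was built from genes that rose, the direction of these values is fixed by it, and their sizes are a description.

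ANKRD1 had the largest ratio of the 5, from 0.597 FPKM in the merged untreated value to 88.9 FPKM in the merged DAC value. This was 148.9-fold (log2 7.22), 13th of the 1783 listed symbols with an untreated value above 0. Its untreated value was under 1 FPKM and comes without bounds or reads, so the size of this ratio is uncertain. CTGF went from 25.8 to 225.2 FPKM (8.75-fold, log2 3.13), and its DAC level was the 6th highest of the whole list. CYR61 went from 46.5 to 170.3 FPKM (3.66-fold), the 18th highest DAC level. AMOTL2 went from 12.9 to 32.0 FPKM (2.48-fold) and LATS2 from 4.39 to 9.61 FPKM (2.19-fold), close to the 2-fold limit of the list. The spread between the 2 HMLER libraries of a condition is not known, because the table merges them.

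The levels of these 5 genes in DAC-treated HMLER cells were all below those in untreated MDA-MB-231 cells. Untreated MDA-MB-231 exceeded untreated HMLER 315.2-fold for ANKRD1, 27.0-fold for CTGF, 11.4-fold for CYR61, 5.86-fold for AMOTL2 and 3.42-fold for LATS2, and exceeded DAC-treated HMLER by between 1.56-fold (LATS2) and 3.10-fold (CYR61). A list of transcripts that rose favours low untreated HMLER levels, and no share over the listed transcripts was computed for the untreated comparison. Of the 1392 listed transcripts with 1 FPKM in MDA-MB-231, 26.3% had a DAC-treated HMLER level below the untreated MDA-MB-231 level. The tables were normalized separately and no test was made across them. ANKRD1 was the gene past 2-fold in both lines. CTGF was above 1 in both and past 2-fold in HMLER, LATS2 was near 1 in MDA-MB-231, and CYR61 and AMOTL2 had ratios under 1 in MDA-MB-231 beside 3.66 and 2.48 in HMLER. Ratios under 1 in MDA-MB-231 were thus 2 of 5, where 19.3% of the 1295 symbols of the HMLER table at 1 FPKM in MDA-MB-231 had them on the listed transcripts.

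**Figure D4:**
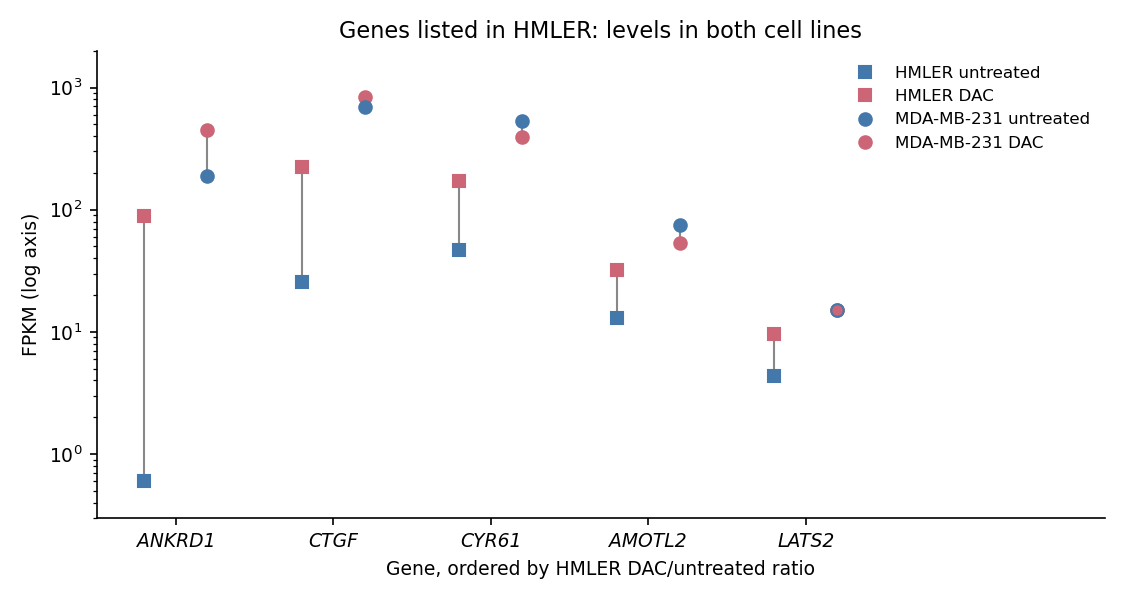
FPKM on a log axis (y) of the 5 genes that the HMLER table lists (x, ordered by HMLER ratio), with squares for the merged HMLER values and circles for the single MDA-MB-231 libraries, blue untreated and red DAC, joined by a line. Every red square lies below the blue circle of its gene, and the MDA-MB-231 circles of LATS2 (15.0 and 15.2 FPKM) lie on top of each other.

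The genes whose 4 values (both lines, both conditions) were most like those of each gene were sought among the 1853 symbols in both tables, by the Euclidean distance of log2(FPKM + 1) over the transcripts that the HMLER table lists. CTGF and CYR61 were near each other, at 1.48: CYR61 was the nearest to CTGF, and CTGF followed for CYR61 after TGM2, transglutaminase 2, at 0.869, and TAX1BP3, a PDZ protein, at 1.19. The same TGM2 (1.67) and TAX1BP3 (2.55) came next for CTGF. Nearest to ANKRD1 were the secreted WNT inhibitor DKK1 (2.51), the peptide precursor KISS1 (2.52) and the kinase PLK2 (2.80), all at a larger distance than the neighbours of the other genes except TAX1BP3 from CTGF. AMOTL2 had the kinase anchor AKAP2, the myosin light chain MYL9 and the anthrax toxin receptor ANTXR2 at 0.592, 0.592 and 0.598, and LATS2 had MPP5, WDR47 and NABP1 at 0.303, 0.381 and 0.392. These distances rest on 4 values each and were not tested.

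The rest of the pathway was read from lists of 47 other genes, of which 44 reached 1 FPKM in MDA-MB-231. Past 2-fold, 1 was higher, 7 were lower and 36 were neither, beside 10.8% higher and 4.82% lower over all genes. With 5 FPKM asked of either library, 465 of all genes were higher and 453 lower. Among 25 other Hippo regulators, 24 of them at 1 FPKM, 3 fell and none rose, with a median ratio of 0.831 beside 0.938 over all genes. Those that fell were the atypical cadherin FAT1, from 25.4 to 10.4 FPKM (ratio 0.410), the polarity scaffold SCRIB, from 52.9 to 25.5 FPKM (0.482), and STK3, the MST2 kinase upstream of LATS, from 16.3 to 8.13 FPKM (0.498). STK3 and SCRIB lay close to the limit and were not called once ratios were divided by the median of all genes. SAV1, the scaffold of the MST kinases, had 14.5 and 27.8 FPKM, a ratio of 1.91 that passed 2-fold under that division.

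Of 7 other TEAD genes and cofactors, 5 reached 1 FPKM, 1 rose and none fell. VGLL3, a vestigial-like TEAD cofactor, rose from 0.589 to 1.41 FPKM, a low level at which the call was lost with a minimum of 1 FPKM in both libraries. TEAD4 had 64.9 FPKM (bounds summed over transcripts 32.0 to 104.3) and 47.3 FPKM (23.4 to 73.7), beside 44.2 and 46.6 FPKM for TEAD1, with overlapping bounds in both libraries. TEAD3 had 14.3 and 24.5 FPKM. TEAD2 had 15.7 and 15.3 FPKM, but its transcripts differed. NM_003598 had 2.67 FPKM (bounds 0 to 6.35) and 10.6 FPKM (3.80 to 17.4). NM_001256659 had 4.70 FPKM (0.190 to 9.20) and 0.00033 FPKM (0 to 0.042), with bounds that lay apart, as for 1.6% of 17744 transcripts. TEAD2 has 6 transcripts, and those that share exons share reads, so these values are estimates by Cuffdiff.

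All 16 other YAP/TAZ targets reached 1 FPKM, 4 fell and none rose, 12 had ratios under 1, and the median ratio was 0.704. The list was chosen with earlier results of these data known, so these counts are a description. Over all genes 10.8% rose, 4.82% fell, 56.9% had ratios under 1 and the median was 0.938. Many of the genes that rose were at low levels. With 5 FPKM asked of either library, the 1350 higher became 465 and the 604 lower became 453. A share at matched levels was not computed. Together the 16 went from 1191 to 644.2 FPKM (ratio 0.541), while the sum over all transcripts of the table had a ratio of 0.815. The ones that fell were the adenosine-producing enzyme NT5E, from 327.7 to 119.1 FPKM (ratio 0.363), the growth factor binding protein IGFBP3, from 173.9 to 64.0 FPKM (0.368), the matrix protein CCDC80, from 66.3 to 17.8 FPKM (0.268), and the RNA-binding protein RBMS3, from 4.65 to 0.952 FPKM (0.204). The RBMS3 call was lost with a minimum of 1 FPKM in both libraries or of 5 FPKM in either. Bounds lay apart between the libraries for 1 of the 2 transcripts of CCDC80 and 1 of the 5 of RBMS3, and for none of the other targets. Over all genes they did for 1.6% of 17744 transcripts at 1 FPKM. PTPN14, a phosphatase that binds YAP and stands in both lists, had 31.1 and 19.6 FPKM. By summed FPKM, ANKRD1 was therefore the only gene past 2-fold upward among the target genes read in MDA-MB-231. These were the 5 targets described above and the 16 of this list, and AXL and 4 of the 16 passed 2-fold downward.

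**Figure D5:**
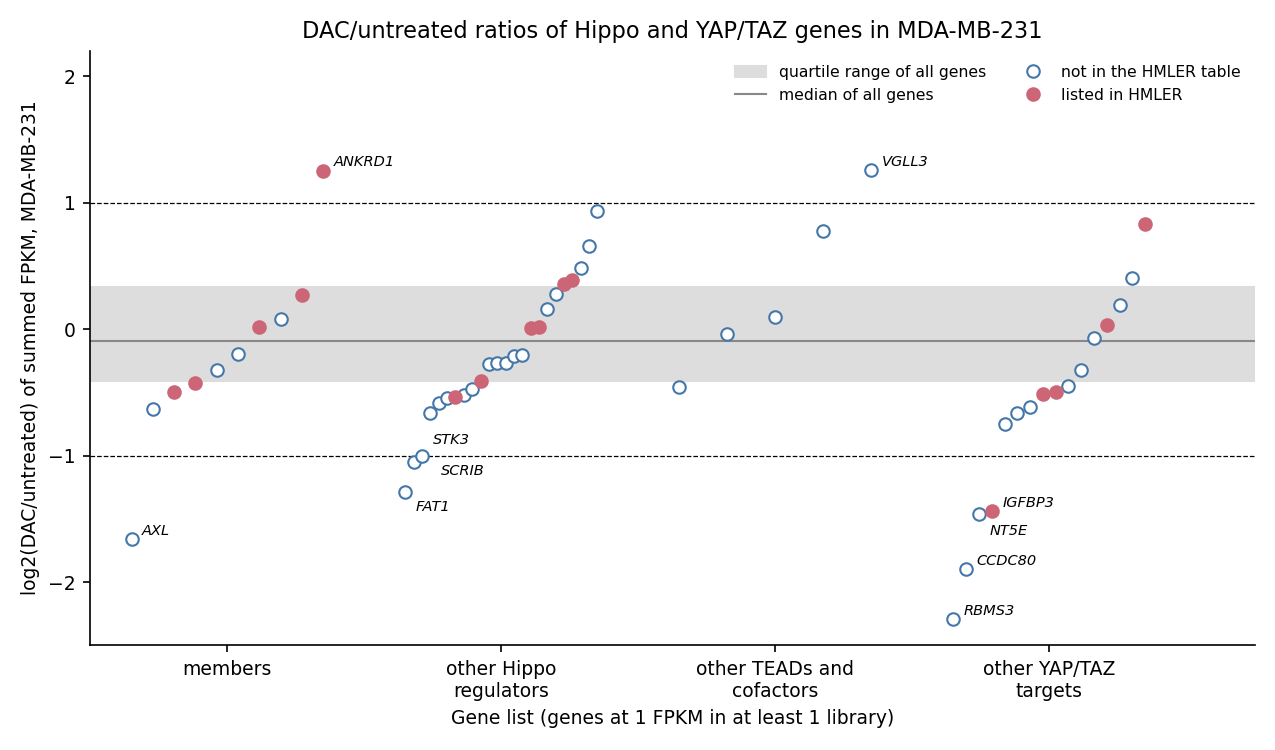
Each point is a gene with 1 FPKM or more in MDA-MB-231, placed by list (x) and by the log2 of its DAC/untreated ratio of summed FPKM (y); red points are in the HMLER table of risen transcripts. The dashed lines mark 2-fold, the grey band the range between the quartiles of all genes around their median of -0.09, and named points are the 2 members and 8 other genes past 2-fold.

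In the HMLER table, 11 of the 47 other genes were listed, 6 of the Hippo regulators, 5 of the targets and none of the TEAD genes and cofactors, beside 10.9% of all genes at 1 FPKM in MDA-MB-231. FRMD6, the FERM protein willin, which acts upstream of the kinases, had the largest ratio, from 0.336 to 15.3 FPKM (45.6-fold) for its listed transcript. The untreated value was under 1 FPKM, and in MDA-MB-231 the transcript had 14.0 and 27.9 FPKM. The LIM-domain proteins AJUBA and WTIP, which bind LATS, went from 11.8 to 37.7 FPKM and from 0.756 to 5.47 FPKM. WWC1 (KIBRA), MAP4K4 and MOB1B completed the regulators, at 4.90-fold, 2.83-fold and 2.96-fold. Of the targets, GADD45A reached 144.2 FPKM from 63.4, tissue factor F3 62.1 from 15.3, IGFBP3 18.6 from 5.12, ASAP1 9.89 from 4.08 and NUAK2 5.32 from 1.14 FPKM. IGFBP3 was thus among the genes that rose in HMLER and among those that fell in MDA-MB-231. The listed transcript of ASAP1 had 0.700 and 3.33 FPKM in MDA-MB-231, where the gene's summed level was 37.5 and 38.3 FPKM.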

How the data were processed

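RNA-seq of DAC-treated and untreated MDA-MB-231 and HMLER cells was analysed from the authors' tables. Per the paper and the labels, polyadenylated RNA was made into TruSeq libraries, and the authors aligned reads to hg19 with TopHat2 and computed FPKM per RefSeq transcript with Cuffdiff on Galaxy (strand, versions and library scaling are not given in the sources used here). The deposited FPKM values were used as they are, and the lower and upper FPKM bounds in the MDA-MB-231 table were used as its only error. The tables also hold the authors' log2 fold changes, test statistics, p-values and q-values of DAC against untreated cells, which were not used. The study's filter is in RPM, so 1 FPKM in at least 1 condition took its place.

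The 10 genes and all lists were chosen with earlier results of these data known, so no list supports a finding by itself. Transcripts were summed per symbol, and a DAC/untreated ratio above 2 or under 0.5 was called. Without replicates no test was run. Reads were inferred from the value of 1 read on transcripts of at least 2000 bases (effective length, length minus 240 bases), and their 95% intervals (exact Clopper-Pearson) cover counting error only. Reads from overlapping antisense genes cannot be told apart. Named are all 10 genes, other listed genes past 2-fold or in the HMLER table, and for each gene in both tables the 3 nearest in pattern. SAV1, TEAD2, TEAD3, TEAD4, PTPN14 and the marker genes fall outside this rule and were named after their values were seen, as was the use of matched transcripts in comparisons between lines. Starts of loci in the files count from 0, and 1 was added. Promoters are those of RefSeq, located by exact match in GRCh37. Alternatives were other filters, pseudocounts, division by the median ratio, the transcript with the largest FPKM, and transcripts with status OK. The steps were checked on simulated data. Scripts ran under Python 3.11.15 with pandas 2.3.3, numpy 2.4.6, matplotlib 3.10.9 and scipy 1.17.1.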

Additional observations from a re-analysis of the deposited data

Results flagged for a closer look

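For 5 of the 17 genes described here that the HMLER table lists at 1 FPKM in MDA-MB-231, marker genes left out, the DAC/untreated ratio lay above 1 in HMLER and below 1 in MDA-MB-231, on the same transcripts and also after dividing by the median ratio of all genes (29.4%, beside 15.6% of 1295 such symbols in all). The HMLER log2 ratio exceeded that of MDA-MB-231 by 2.30 for CYR61, 1.81 for AMOTL2, 2.52 for F3, 3.31 for IGFBP3 and 1.70 for GADD45A. This difference between the lines was not tested, since there is 1 value per condition and line. Because the HMLER table lists only transcripts that rose, a difference the other way has no place in it. Of the 5, IGFBP3 passed 2-fold downward in MDA-MB-231 (ratio 0.368 on the listed transcript), and the ratios of the other 4 there lay between 0.701 and 0.743.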

How the results depend on the processing

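No paired analysis was possible because each condition has 1 merged value in HMLER and 1 library in MDA-MB-231, and for the same reason no library could be left out. Under the 8 alternatives the calls of ANKRD1 and AXL held. At their levels only division by the median ratio and the transcript of largest FPKM could matter, and neither could undo the call of ANKRD1, which has 1 transcript. Division by the median ratio raises every ratio, so it could change the sign of the log2 ratio only for genes under a ratio of 1. The transcript of largest FPKM could change it only for YAP1, WWTR1, LATS1 and AXL. In all these cases the sign was kept. Of the 47 other pathway genes, between 5 and 7 were lower in every setting. The number higher, 1 as reported, was 2 with no filter, 0 when 1 FPKM was asked of both conditions, 0 when 5 FPKM was asked of either, 0 with a pseudocount of 1 FPKM, 2 after dividing by the median ratio (0.912) and 2 with the transcript of largest FPKM, so no statement rests on it. Over all genes, the 1350 higher became 5193 with no filter, 494 with 1 FPKM in both, 465 with 5 FPKM and 863 with a pseudocount of 1 FPKM, and the 604 lower became 1080 with no filter. Asking for 1 FPKM in both conditions left 4 of the 5 genes of the HMLER table, since ANKRD1 had 0.597 FPKM untreated. Depth does not limit the 10 genes in MDA-MB-231, where they had at least 2004 reads in a library. Reads were not inferred for HMLER, and the spread between cultures is not known for either line.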

Other observations

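The partners of AXL and the relatives of CTGF and CYR61 were read beside them in MDA-MB-231. GAS6, the ligand of the TAM receptors, fell with AXL, from 28.9 to 13.3 FPKM (ratio 0.461), while the ligand PROS1 had 3.15 and 3.99 FPKM. The sister receptors had 7.56 and 11.9 FPKM for TYRO3 and 3.02 and 5.97 FPKM for MERTK, a ratio of 1.98, and after DAC they stood well below the 126.7 FPKM of AXL. MERTK was also in the HMLER table, from 0.435 to 2.58 FPKM. Of the other CCN family genes, NOV (CCN3) had 5.47 and 9.36 FPKM (ratio 1.71), and WISP1, WISP2 and WISP3 were under 1 FPKM in both MDA-MB-231 libraries. WISP2 (CCN5) was in the HMLER table, from 0.152 to 1.36 FPKM. These values come from the same libraries without replicates and were not tested.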
